A study of Mus musculus with 6 samples.

Results

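The genes described are those of the GDNF receptor system: Ret, its co-receptor genes Gfra1, Gfra2, Gfra3 and Gfra4, and the ligand genes Gdnf and Nrtn. Every probe set whose platform annotation names exactly 1 of these 7 genes was taken and kept separate, which gave 14 of the 45037 probe sets tested. They are 7 of the 18193 genes named on the array. The family was chosen by earlier results of these arrays, namely the large EBF minus control difference of Gfra2. Their differences between those groups are therefore given as a description, without p-values. Both groups were mouse Pax5-/- pro-B cells, deficient in a transcription factor needed for B lineage commitment, and were grown on ST2 bone marrow stromal cells with 5 ng/ml IL-7. The EBF group (EBF 1 to 3) was infected with the Mig-EBF retrovirus, which carries the B cell transcription factor EBF, and the control group (control 1 to 3) with the MigR1 retrovirus. In both groups GFP-positive, that is infected, cells were sorted after 2 days and their RNA was measured on Affymetrix arrays, 1 per replicate and 3 per group. The labels number the replicates but do not say that they came from separate cultures or animals, so errors and p-values cover the variation among these arrays alone, which can be purely technical.

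RET is a receptor tyrosine kinase that binds the GDNF family of growth factors only together with a GFR alpha chain, a co-receptor held on the outer membrane by a glycolipid (GPI) anchor. GFR alpha 1 (Gfra1) prefers GDNF, GFR alpha 2 (Gfra2) neurturin (Nrtn), GFR alpha 3 artemin and GFR alpha 4 persephin. The system is best known from the enteric nervous system, the kidney and sensory and motor neurons. In blood-forming tissue, RET has been described in haematopoietic stem cells and in innate lymphoid cells of the mouse.

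Array medians lay between 424.3 and 451.3 intensity units. The 27 control probe sets for Bacillus transcripts, which mouse RNA should not light up, had medians of 97.6 to 108.0 per array and a highest value of 410.4. Among the pro-B markers, the surrogate light chain gene Vpreb1 averaged 19550 in the EBF arrays and 18553 in the controls, and its partner Igll1 averaged 13667 in the EBF arrays and 9243 in the controls. Over all probe sets 394 (0.875%) passed the threshold, a limma adjusted p below 0.05 over all 45037. Over the 22518 brighter probe sets EBF 3 had correlations of 0.977 and 0.981 with the other EBF arrays, which had one of 0.990 with each other. Without EBF 3, 4287 probe sets passed. The leading Ebf1 probe set read 4537 ± 394 in the EBF arrays and 4169 ± 127 in the controls (SD, n = 3 each). The other Ebf1 probe sets averaged 2901, 1352, 1415 and 171.1 in the EBF arrays, against 3329, 1711, 1502 and 162.6 in the controls. Whether any of the 5 Ebf1 probe sets lies in the part carried by the virus is unknown, so these values are no check of the labels.

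The co-receptor gene Gfra2 was higher in the EBF arrays at 4 of its 5 probe sets without overlap between the groups, by between 1.43-fold and 3.37-fold, and the groups overlapped at the remaining one. Among all probe sets, 15.5% were likewise higher in EBF without overlap. Its brightest probe set, 1433716_x_at, read 4217, 4766 and 3864 in EBF 1 to 3, against 1682, 1689 and 1146 in control 1 to 3. Every EBF array lay above every control array, and replicate 3 was the lowest of both groups. The means were 4282 ± 454 in the EBF arrays and 1506 ± 312 in the controls (SD, n = 3 each), a log2 difference of 1.50 ± 0.15 (SE) or 2.84-fold. All differences here are of log2(intensity + 32), which understates the change of dim probe sets. By size of increase it was at rank 6 among the 18193 genes, each taken at its brightest probe set.

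The dimmer probe set 1459847_x_at of Gfra2 gave the same order of the EBF arrays as the brightest. It read 2272, 2600 and 1916 in EBF 1 to 3, against 790.4, 712.6 and 473.6 in control 1 to 3. The log2 difference was 1.75 ± 0.18 (SE), the largest of the 14 probe sets. The suffix "_x_at" marks probe sets of which some probes may also match other transcripts, and both Gfra2 sets with the largest differences carry it. A probe set without that suffix, 1425578_a_at, read 931.1, 656.4 and 786.3 in the EBF arrays and 395.5, 321.8 and 310.5 in the controls. It differed by 1.13 ± 0.13 on the log2 scale (2.19-fold), again without overlap.

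The remaining probe sets of Gfra2 moved less. At 1423007_a_at the EBF arrays read 2804, 2246 and 1807 and the controls 1698, 1658 and 1347. The groups did not overlap, but the lowest EBF array and the highest control array lay close together, and the log2 difference was 0.52 ± 0.16 (SE). At 1425579_at the EBF arrays read 2271, 2394 and 2275 and the controls 1772, 2589 and 2043. Here control 2 was the highest of all 6 arrays and the log2 difference was 0.13 ± 0.13. The platform annotation gives 1425578_a_at and 1425579_at the same source sequence, so probe sets drawn from that source differed in what they read. The measured size of the Gfra2 difference thus depended on the probe set, from 0.13 to 1.75 on the log2 scale. In RNA from a sorted population, more cells with Gfra2 RNA and more Gfra2 RNA per cell cannot be told apart.

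Ret, the signalling chain of the receptor, was higher in the EBF arrays at both of its probe sets. At 1436359_at the EBF arrays read 318.3, 303.5 and 342.5, against 124.1, 121.5 and 89.5 in the controls. The controls thus lay around the medians of the Bacillus control probe sets, control 3 below them, and every EBF array lay above them. The means were 321.4 ± 19.7 in the EBF arrays and 111.7 ± 19.3 in the controls (SD, n = 3 each), a log2 difference of 1.31 ± 0.11 (SE) or 2.47-fold. Because the controls are so dim, the size depends on the number added before taking logs: it was 1.41 with 16 and 1.14 with 64 in place of 32. All EBF values of this probe set were below the highest single Bacillus control value.

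At 1421359_at, the brighter Ret probe set, the EBF arrays read 622.6, 560.5 and 540.2, against 455.9, 414.7 and 380.0 in the controls. The lowest EBF array was above the highest control, and within each group replicate 1 was the highest and replicate 3 the lowest. The log2 difference was smaller than at the other probe set, 0.44 ± 0.09 (SE) or 1.35-fold. Both Ret probe sets therefore gave the same direction with different sizes.

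**Figure D1:**
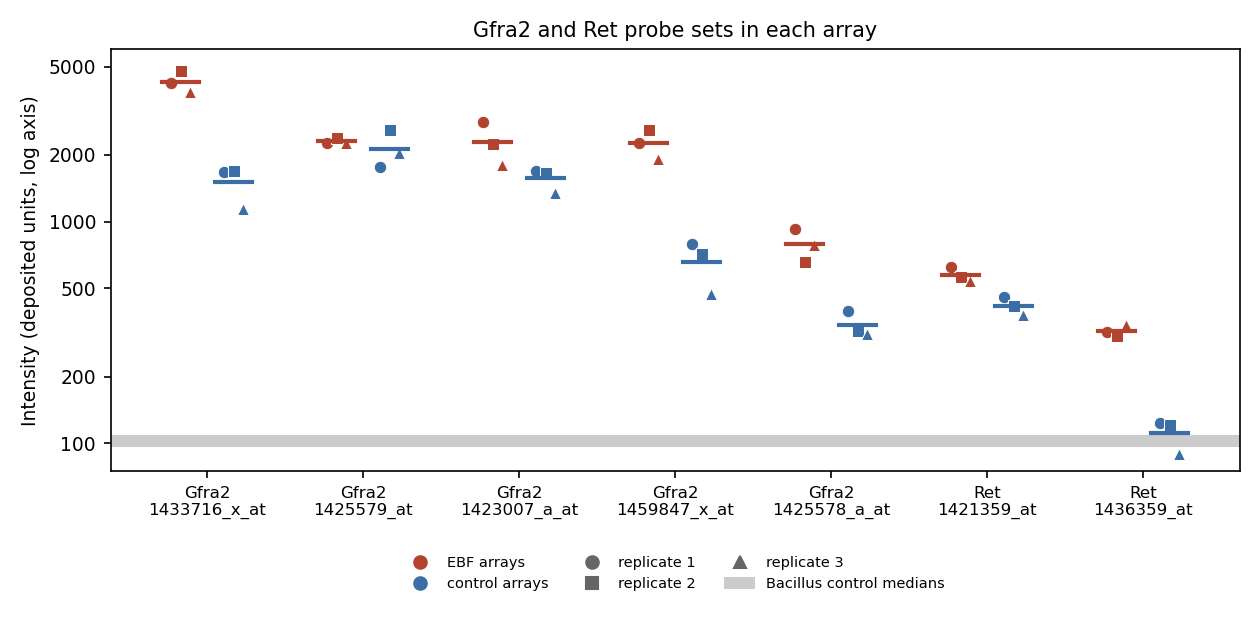
Intensity (log axis, deposited units) of the 5 Gfra2 and 2 Ret probe sets in each array, with EBF arrays left of control arrays; symbols mark the replicate number, short lines the mean of 3 arrays and the grey band the range of the Bacillus control medians, 97.6 to 108.0. The groups are apart at all probe sets other than 1425579_at, and the control arrays of Ret 1436359_at lie around the grey band.

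Gfra1, the co-receptor with a preference for GDNF, had lower means in the EBF arrays at all 3 of its probe sets, by small amounts. At the brightest, 1439015_at, the EBF arrays read 4051, 3902 and 3670 and the controls 4855, 4740 and 4286. The groups did not overlap, and the log2 difference was -0.25 ± 0.08 (SE), that is 1.19-fold lower. At 1450440_at the EBF arrays read 2300.2, 2109.6 and 1832 and the controls 2952, 2511 and 2153, with EBF 1 above control 3 and a log2 difference of -0.28 ± 0.13. At 1421973_at the EBF arrays read 1729, 1762 and 1377 and the controls 2044, 1970 and 1558, also with overlap, and the difference was -0.19 ± 0.13. The last 2 share 1 source sequence in the platform annotation and are not independent readings. Replicate 3 was the lowest of its group at all 3 probe sets. Each EBF array lay below the control array of its own number at each of them, by 0.16 to 0.36 on the log2 scale. None of the 3 passed the threshold. Genes typical of ST2 stroma and mesenchyme, such as the collagen gene Col1a2, had summed intensities of 20648, 14979 and 18234 in EBF 1 to 3, against 15560, 21372 and 25528 in control 1 to 3 over 14 genes. These ranges overlap, and the part of stromal RNA in the Gfra1 difference was not tested.

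Promoter sequences of 4 of the 7 genes (Gfra1, Gfra4, Gdnf and Nrtn) were taken from the RefSeq table for GRCm38.p6. They are 6 windows from 250 bases before to 50 bases after a transcript start. No window of Gfra2, Gfra3 or Ret is among these 6, so the counts below do not cover those genes. Each window was searched for the palindromic core of the EBF motif, CCCNNGGG, and for a longer form with a T before and an A after that core. Any match to the longer form is also one to the core, and both read the same on either strand. The longer form was in 0 of the 6 windows and in 0.904% of all 32851 promoter windows, and the core in 1 of the 6 and in 13.7% of all. The window of Gfra1 is shown because that gene had the lower values in the EBF arrays, and the window of Gfra4 because it holds the match, in capitals. They lie at chr19:58455349-58455648 and chr2:131042633-131042932, both on the minus strand, and are printed 5′ to 3′ in the direction of the gene. A match of letters is a description and not a measured binding site.
Gfra1: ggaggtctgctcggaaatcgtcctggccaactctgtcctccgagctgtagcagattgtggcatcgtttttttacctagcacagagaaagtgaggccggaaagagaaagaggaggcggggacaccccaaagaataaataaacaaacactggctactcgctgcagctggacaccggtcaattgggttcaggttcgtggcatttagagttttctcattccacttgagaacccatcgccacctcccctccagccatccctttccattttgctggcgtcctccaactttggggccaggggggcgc
Gfra4: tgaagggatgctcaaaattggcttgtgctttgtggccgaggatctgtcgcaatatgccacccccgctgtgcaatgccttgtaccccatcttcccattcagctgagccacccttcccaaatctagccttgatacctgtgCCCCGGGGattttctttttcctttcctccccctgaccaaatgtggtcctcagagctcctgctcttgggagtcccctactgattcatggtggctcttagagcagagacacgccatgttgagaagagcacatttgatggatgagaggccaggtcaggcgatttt

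The other co-receptor genes differed little between the groups. Gfra3, whose product pairs with artemin, read 1783, 1738 and 1916 in EBF 1 to 3 and 1805, 2202 and 1951 in control 1 to 3. The groups overlapped, with EBF 3 above control 1, and the log2 difference was -0.13 ± 0.09 (SE). Gfra4, the persephin co-receptor gene, read 368.4, 324.6 and 334.6 in the EBF arrays and 334.1, 334.8 and 315.0 in the controls, a log2 difference of 0.06 ± 0.08 with overlap. All 6 values of Gfra4 were below the highest single Bacillus control value.

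The ligand genes were dim in both groups. Gdnf read 285.0, 260.7 and 237.3 in EBF 1 to 3 and 224.1, 259.7 and 232.5 in control 1 to 3. The groups overlapped and the log2 difference was 0.11 ± 0.09 (SE). Nrtn, the ligand preferred by the Gfra2 product, read 346.0, 390.7 and 444.4 in the EBF arrays and 365.8, 450.1 and 416.6 in the controls, with a difference of -0.06 ± 0.11. EBF 1 was the lowest of the 6 arrays and control 2 the highest. All 6 Gdnf values were below the highest single Bacillus control value, and 3 of the 6 Nrtn values were above it. Neither ligand gene passed the threshold.

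**Figure D2:**
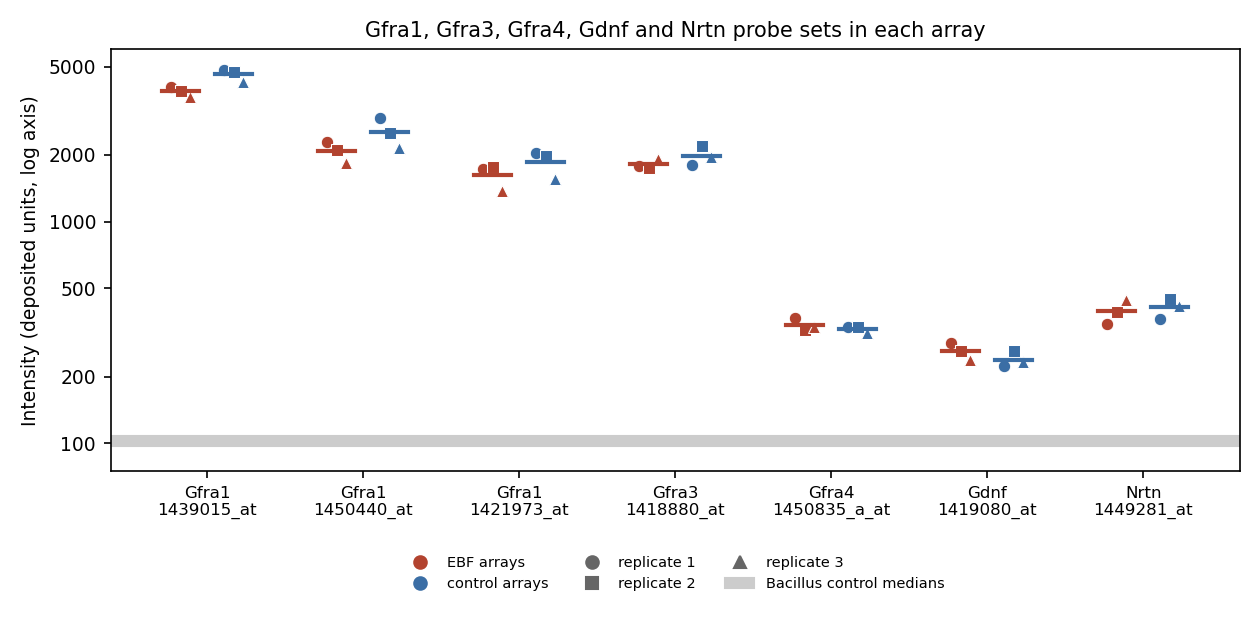
Intensity (log axis, deposited units) of the Gfra1, Gfra3, Gfra4, Gdnf and Nrtn probe sets in each array, drawn as for Gfra2 and Ret with EBF arrays left of control arrays. The 3 Gfra1 probe sets have lower EBF means, while the EBF and control points of Gfra3, Gfra4, Gdnf and Nrtn overlap.

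Of the 14 probe sets, 4 passed the threshold, all higher in the EBF arrays: 3 of Gfra2 (1433716_x_at, 1459847_x_at and 1425578_a_at) and Ret 1436359_at. Over all probe sets the share was 0.875% in either direction and 0.344% higher in EBF. Since this contrast was in view when the genes were picked, nothing is read from that gap. With a replicate block, that is with the number as a term in the model, 6 passed, adding Gfra2 1423007_a_at and Ret 1421359_at, against 7.28% of all probe sets. The same count of 6 was found without EBF 3, where the size at 1433716_x_at was 1.58 and at Ret 1436359_at 1.26 on the log2 scale. Without control 2 the call of 1425578_a_at was lost and 3 remained. The groups did not overlap at 7 of the 14 (6 higher and 1 lower in EBF), against 23.2% of all probe sets (15.5% higher and 7.67% lower). The median log2 difference was 0.12 over the 14 and 0.02 over all probe sets.

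Within pairs of arrays with the same number, EBF was above control in all 3 pairs at both Ret probe sets and at 4 of the 5 Gfra2 probe sets. That follows from the lack of overlap at these probe sets, which 15.5% of all probe sets shared with EBF higher, and is no further result. The share of all probe sets with 3 higher pairs was not computed. Gdnf, whose groups overlapped, also had EBF above control in all 3 pairs. At Gfra2 1425579_at the differences were 0.35, -0.11 and 0.15 on the log2 scale for numbers 1, 2 and 3. At Gfra2 1433716_x_at EBF exceeded control by 1.31, 1.48 and 1.73 on the log2 scale for numbers 1, 2 and 3. At Ret 1436359_at the corresponding differences were 1.17, 1.13 and 1.62. At both the gap was widest for number 3, where the control array was the lowest of its group. At Ret 1421359_at they were nearly equal, 0.42, 0.41 and 0.47.

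**Figure D3:**
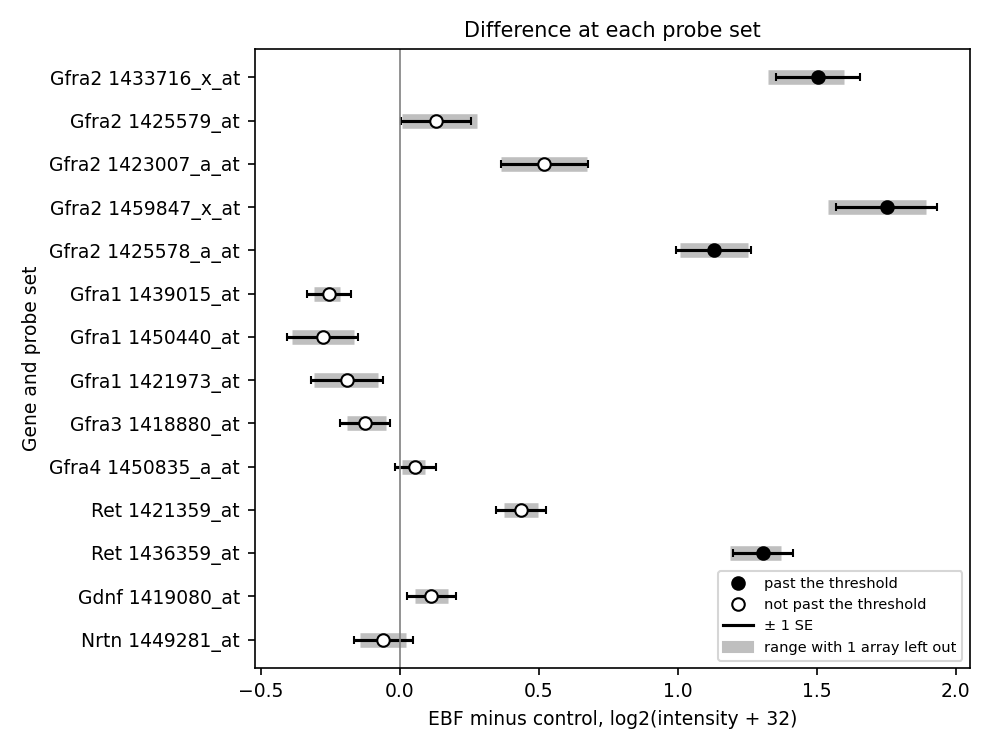
EBF minus control on the log2(intensity + 32) scale for each of the 14 probe sets, with limma's standard error (black bars, n = 3 arrays per group) and the range found when 1 array at a time was left out (grey). Filled points passed the threshold over all probe sets: 3 of Gfra2, from 1.13 to 1.75, and Ret 1436359_at at 1.31, while the Gfra1 points lie between -0.28 and -0.19.

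Other genes of the pathway mostly showed no change past the threshold. Over 5 lists of such genes, each gene at its brightest probe set, 120 genes were measured, of which 1 rose and 1 fell (1.67%), against 1.09% of the 18193 genes (0.418% higher and 0.671% lower). The median log2 difference was -0.02 over these genes and 0.03 over all genes. Pik3r1, the regulatory subunit of the PI 3-kinase that RET recruits, read 4246, 3838 and 4163 in EBF 1 to 3, against 6639.6, 6061 and 5645 in control 1 to 3. It fell by 0.58 ± 0.08 (SE) on the log2 scale without overlap of the groups (limma adjusted p = 0.0237). Myc, a growth regulator induced by many receptor kinases, read 6585, 6588 and 6536 in the EBF arrays, against 5053, 4270.5 and 4547 in the controls. It rose by 0.51 ± 0.08 (limma adjusted p = 0.0325). The count of 2 was fragile: it was 0 without EBF 1, EBF 2, control 1 or control 2, 9 without EBF 3 and 10 with the replicate block (3 higher and 7 lower), which called 7.34% of all genes.

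Among 51 adaptors and effectors of RET, 0 rose, 1 fell (Pik3r1) and 50 did not pass, with a median of -0.07. The blocked fit added Irs1, a docking protein (log2 0.53 ± 0.22 SE), and the adaptor gene Shc3 (0.32 ± 0.09) as higher. It added Stat3, a transcription factor (-0.33 ± 0.09), and Ptprj, a receptor phosphatase (-0.45 ± 0.10), as lower. All SEs in this paragraph are those of the fit without the block. Of 19 genes that respond to RET and ERK signalling, Myc rose, 0 fell and 18 did not pass. Among the 18, the immediate early genes Ier3 and Fos had log2 differences of -1.10 ± 0.22 and -0.97 ± 0.51, and both were lower with the block, as was the phosphatase gene Dusp5 (-0.37 ± 0.14). Fos differed more between replicate numbers than between groups, with 822.8, 1904 and 645.0 in EBF 1 to 3 and 1607, 4354 and 1132 in control 1 to 3.

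Among the other ligands and binding partners 0 of 8 passed in limma, 0 at an unadjusted p below 0.05 and 0 with the block. The artemin gene Artn read 236.4 ± 19.4 in the EBF arrays and 215.8 ± 11.9 in the controls (SD, n = 3 each). The persephin gene Pspn read 612.8 ± 41.2 in the EBF arrays and 634.6 ± 15.0 in the controls. Ncam1, an adhesion molecule that can bind GDNF without RET, had a log2 difference of 0.17 ± 0.09 (SE) and the integrin gene Itgb1 of -0.13 ± 0.08, the smallest p-values of this list. Of 18 regulators of Ret or Gfra transcription, 0 passed in limma. At an unadjusted p below 0.05, 3 were higher and 2 lower, against 19.7% of all genes (13.5% higher and 6.23% lower). The homeobox gene Tlx1 (0.36 ± 0.11) and the receptor gene Ahr (-0.25 ± 0.09) had the smallest p-values, and the blocked fit called Runx1 lower. Of 25 genes for GPI anchor synthesis 0 passed in limma or with the block, and 3 higher and 2 lower had an unadjusted p below 0.05, a share of the 25 close to that of all genes. Pigx (-0.25 ± 0.08) and Gpaa1, part of the enzyme that attaches the anchor (0.21 ± 0.07), came nearest.

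**Figure D4:**
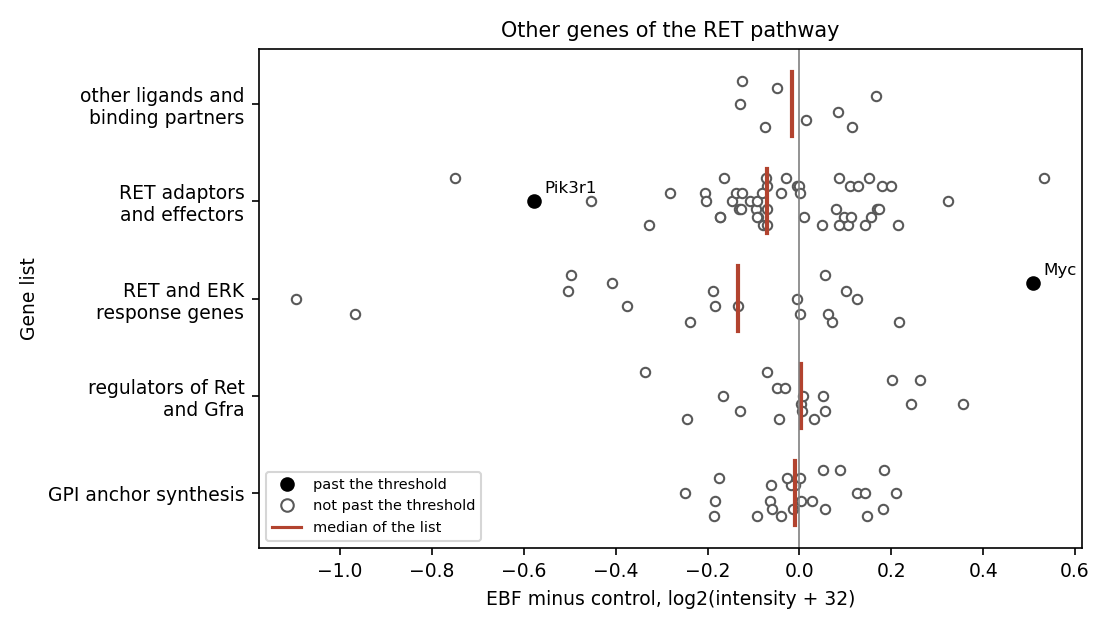
EBF minus control on the log2(intensity + 32) scale for the genes of the 5 pathway lists, 1 point per gene at its brightest probe set, with red lines at the list medians. Filled points passed the threshold over all probe sets: Pik3r1 at -0.58 and Myc at 0.51.

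Markers of cell types in which the GDNF receptors are well known were also read. Of all genes, 1.09% passed the threshold (0.418% higher and 0.671% lower). Of 12 neuron markers 0 rose and 1 fell, the synaptic vesicle gene Syt1 (log2 -0.97 ± 0.08 SE, limma adjusted p = 0.00258). The summed intensity of the 12 was 6001 to 6392 in the EBF arrays and 6010.2 to 6791 in the controls. Without Syt1, a split made after the values were seen, it was 5166 to 5588 in the EBF arrays and 4387 to 5017 in the controls. Those ranges do not overlap, but only 5 of these 11 genes had a higher EBF mean. The synaptic gene Snap25, at 41.3 in the EBF arrays and 38.4 in the controls, was the 1 of the 12 that averaged below the Bacillus median. The other 11 averaged above it, for example the neuronal RNA-binding protein genes Rbfox3 (718.6 in the EBF arrays, 679.2 in the controls) and Elavl3 (821.1 in the EBF arrays, 839.0 in the controls). The tubulin gene Tubb3 read 1782, 1316 and 900.1 in EBF 1 to 3, against 749.8, 499.8 and 271.5 in control 1 to 3. The groups of Tubb3 did not overlap, and it passed the threshold with the block but not without it. Of 8 glia and Schwann cell markers 0 passed in limma or with the block and 0 had an unadjusted p below 0.05, and their sum was 5298 to 5983 in the EBF arrays and 5721 to 6148 in the controls. Of 7 NK and innate lymphoid markers 0 rose and 2 fell, Klrd1 and Nkg7, and their sum was 2348 to 2534 in the EBF arrays and 4836 to 6411 in the controls, without overlap. Klrd1 averaged 607.0 in the EBF arrays and 2646 in the controls, and Nkg7 averaged 577.9 in the EBF arrays and 1959 in the controls. The sum of the other 5, split off after the values were seen, was 1202 to 1331 in the EBF arrays and 1197 to 1237 in the controls, and the list median was 0.01 on the log2 scale. The summed plasmacytoid dendritic cell markers were also lower in every EBF array, 9679.5 to 10696, against 11285 to 12272 in the controls. Without Ccr9, likewise split off after the values were seen, the ranges overlapped, 8687 to 9670 in the EBF arrays and 9560 to 10957 in the controls. The summed macrophage markers were lower in every EBF array too, 10711 to 10812, against 12566 to 13216 in the controls. The macrophage list median was nevertheless 0.03 on the log2 scale. Of that sum, the mannose receptor gene Mrc1 made up 5458 ± 108 in the EBF arrays and 7359 ± 437 in the controls (SD, n = 3 each). The 9 macrophage markers that did not pass were also split off after the values were seen. They summed to 4619 to 4805 in the EBF arrays and 4352 to 5117 in the controls. The granulocyte and T cell sums overlapped. Ccr9 was the 1 of 10 plasmacytoid dendritic cell markers to pass, and Mrc1 and Lyz2 the 2 of 11 macrophage markers, all lower. In the limma fit 0 of 9 granulocyte, 0 of 9 T cell and 0 of 14 stromal markers passed. With the block the numbers were 1, 0 and 0, and at an unadjusted p below 0.05 they were 2, 3 and 1. Among all genes 7.34% passed with the block and 19.7% had a limma unadjusted p below 0.05. Of the plasmacytoid dendritic cell markers 5 of 10 had such a p and 4 passed with the block (Klk1 higher; Bst2, Irf7 and Ccr9 lower). Of the 14 pro-B markers 2 fell, the stem cell factor receptor gene Kit and the terminal transferase gene Dntt. With the block 3 were also higher, Igll1 (0.57), the B cell receptor component gene Cd79b (0.40) and the IL-7 receptor gene Il7r (0.42 on the log2 scale), and 9 of the 14 had an unadjusted p below 0.05. The summed pro-B markers were higher in every EBF array, 82715 to 84908, against 75134 to 79504 in the controls. Of that sum, Igll1 alone made up 13667 ± 1275 in the EBF arrays and 9243 ± 1298 in the controls (SD, n = 3 each). Of the 14 pro-B markers 9 had a higher EBF mean, and the list median was 0.09 on the log2 scale. The calls of Ccr9, Mrc1, Lyz2, Kit and Dntt were each lost without EBF 1, without EBF 2, without control 1 and without at least 1 further control array, whereas those of Syt1, Klrd1 and Nkg7 held without any 1 array. The part of these cell types in the Gfra2 and Ret differences was not tested.

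The genes whose pattern over the 6 arrays was most like that of the brightest Gfra2 probe set were taken from 298 genes with a mean intensity of at least 200 and a range of at least 1 on the log2 scale. They were Ccl9 (a chemokine), Scn4b (a sodium channel subunit), Zdhhc13 (a palmitoyl transferase), Ssc5d, Tnnt2 (cardiac troponin T), Cndp2 (a dipeptidase), Ms4a1 (CD20), Clgn (a chaperone), Krba1 and Cracdl. Their Pearson correlations with Gfra2 lay between 0.972 and 0.990 over 6 arrays. The arrays fall into 2 groups that lie apart, so these values mostly describe that gap, and no p is given. The Ret probe sets had correlations of 0.982 (1436359_at) and 0.954 (1421359_at) on the same measure, although neither was in that pool. Most opposite were Slc15a3 (a lysosomal peptide transporter), Ptpre (a tyrosine phosphatase) and Pglyrp2 (a peptidoglycan amidase), at -0.981, -0.975 and -0.965.

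**Figure D5:**
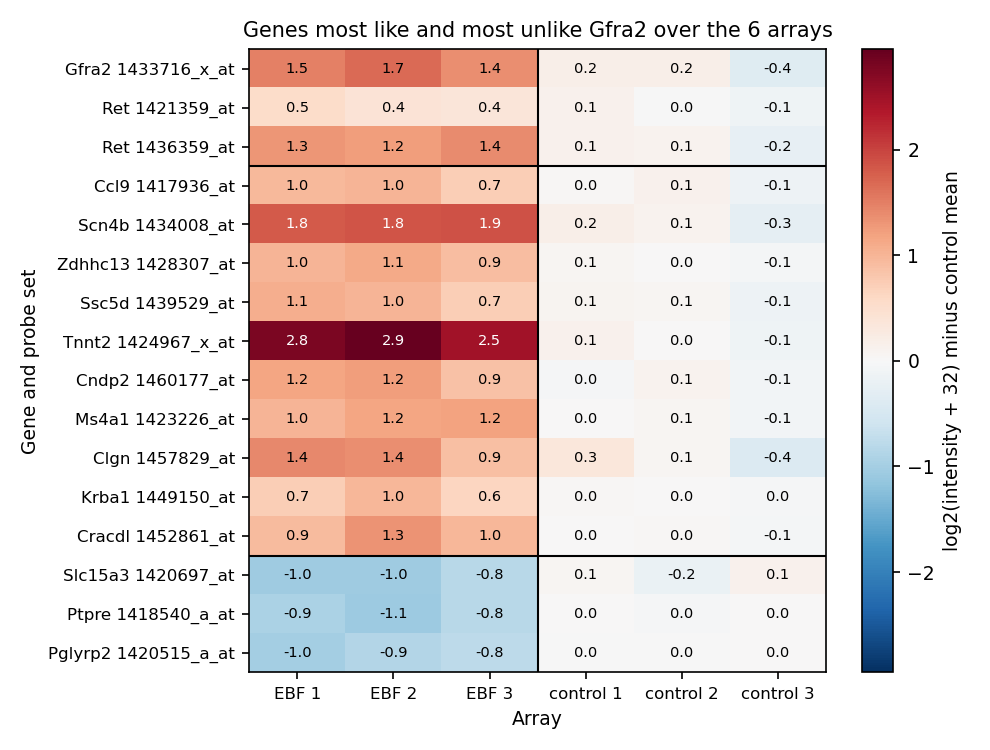
Log2(intensity + 32) minus the control mean in each array for Gfra2, the 2 Ret probe sets, the 10 genes most like Gfra2 and the 3 most opposite to it, with EBF arrays left of control arrays. Gfra2 is 1.36 to 1.66 above the control mean in the EBF arrays, and control 3 is its lowest array, 0.36 below that mean.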

How the data were processed

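The table deposited by the authors holds 1 linear intensity per probe set and array. Per the labels' protocols, 6 microg of total RNA went into the biotinylated cRNA. For the software, background correction and normalization, the sources used here name none. The design text names a rat array, but the organism label and the platform's gene table are those of the mouse. The 64 Affymetrix controls among 45101 probe sets were dropped; of the rest 34945 had 1 gene symbol, 932 several and 9160 none listed. No further scaling was applied. The log2(intensity + 32) values were fitted with limma 3.58.1 (R 4.3.3; lmFit, eBayes, two-sided) with group as the sole factor. Benjamini-Hochberg adjustment covered all 45037 probe sets, with a threshold of 0.05. The fit was tested on simulated data with 3 arrays per group. Of 50 simulated log2 differences of each size, 20 passed at 0.5, 43 at 1.0 and 50 at 2.0, with 8 false calls. Differences of 0.5 were thus mostly missed there. A gene's leading probe set is its brightest over all 6 arrays.

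The members, the 5 pathway lists and the 9 marker lists came from textbook knowledge but were chosen with earlier results of these data known. Named genes were all members, up to 5 changed genes per pathway list (or the 2 with the smallest p), the 10 genes most like Gfra2 and the 3 most opposite. Genes called by the blocked fit, the listed markers, Artn, Pspn and the chromosomal neighbours were named after their values were seen. List entries without a probe set of 1 symbol were not analysed here. The number of arrays limits the precision.

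To see whether replicate numbers pair the arrays, each array's deviations from its group mean were correlated with those of the like-numbered array over the 22518 brighter probe sets. The correlations were 0.318, 0.255 and 0.504 for numbers 1, 2 and 3, so the numbers were taken to pair the arrays; the labels themselves say nothing of pairs. Alternatives were another pseudocount, quantile or median scaling, a filter on dim probe sets, an intensity trend, the replicate block and leaving out arrays.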

Additional observations from a re-analysis of the deposited data

How the results depend on the processing

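The Gfra2 difference at 1433716_x_at ranged from 1.32 to 1.60 on the log2 scale with 1 array left out and was 1.67 without EBF 3 and control 2 together. It moved by less than the pooled SD between replicates in all 14 alternatives, as did 180 of 182 values of the other 13 probe sets. The exceptions were Ret 1436359_at with a pseudocount of 64 (1.14) and Gdnf without EBF 3 and control 2 (0.23). Leaving out 1 array of 3 cannot move a difference beyond that SD. The block, the intensity trend and the filter on dim probe sets left every difference of the 14 unchanged. These settings could therefore not fail, and nothing is read from them here. The number of the 14 probe sets past the threshold was between 3 and 6 with 1 array left out. The replicate block gave 6, and the other settings gave 4. Over all probe sets, the count of 394 became 3280 with the replicate block, 1887 without EBF 3 and control 2, and between 79 and 4287 with 1 array left out. The 2 pathway genes became 10 with the replicate block, 5 without EBF 3 and control 2, and between 0 and 9 with 1 array left out. Pik3r1 lost its call without EBF 1, EBF 2, control 1 or control 2 (highest limma adjusted p 0.130), and Myc without any 1 array other than EBF 3 (0.159). The block changed no call of the 14 probe sets other than those of Gfra2 1423007_a_at and Ret 1421359_at.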

Other observations

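Genes that lie next to Gfra2, Ret and Gfra1 on their chromosomes were looked up in the RefSeq gene order of GRCm38.p6, after the values had been seen. Of the 3 nearest measured genes on each side of Gfra2, on chromosome 14, none passed the threshold in limma or with the replicate block, and their log2 differences ranged from -0.28 to 0.21. Among them was Dok2, an adaptor of receptor kinases, which averaged 1406 in the EBF arrays and 1721 in the controls (log2 -0.28 ± 0.08 SE). Beside Ret, on chromosome 6, the adjoining gene Csgalnact2, an enzyme of chondroitin sulfate synthesis, was higher in the EBF arrays. It averaged 357.8 ± 40.9 in the EBF arrays and 204.1 ± 38.9 in the controls (SD, n = 3 each; log2 0.73 ± 0.13 SE, limma adjusted p = 0.0443), and its groups did not overlap. The call was lost without EBF 1, EBF 2, control 1 or control 2 (highest limma adjusted p 0.196). The neighbour on the other side of Ret, Bms1, a ribosome assembly factor, had a log2 difference of 0.13 ± 0.08, and the other 4 genes around Ret ranged from -0.19 to 0.01. None of the 6 genes around Gfra1, on chromosome 19, passed the threshold in limma or with the block, and their differences ranged from -0.18 to 0.22.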
